A study of Homo sapiens with 12 samples.

Results

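The genes described here encode the oxygen-sensing core of the hypoxia response pathway: the HIF subunits HIF1A, EPAS1, HIF3A, ARNT and ARNT2, the prolyl hydroxylases EGLN1, EGLN2 and EGLN3, the asparaginyl hydroxylase HIF1AN, and VHL. They were chosen by name, and all 10 were found by their Ensembl identifiers among the 60666 genes listed in each library. Expression was measured in Huh7 cells, an established human hepatocellular carcinoma line, in 4 groups of 3 replicates, which makes 12 libraries. Cells were grown with 25 µM Molidustat for 24 h or 48 h, or with DMSO, the solvent, alone for the same times. Molidustat is a small molecule that inhibits the prolyl hydroxylases, so the products of 3 of these genes are the targets of the compound. No gene was edited or silenced in any group, and all groups are the same line. Replicates are called biological in the study's methods, whereas the study's record speaks of RNA extractions in triplicate. The p-values below measure the spread between these samples, which may be partly technical.

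HIF is a dimer of a stable beta subunit (ARNT or ARNT2) and an oxygen-labile alpha subunit, which HIF1A, EPAS1 or HIF3A encodes. In the presence of oxygen, the prolyl hydroxylases modify the alpha subunit, VHL binds the hydroxylated form, and the ubiquitin ligase built around VHL sends it to the proteasome. HIF1AN, also known as FIH, hydroxylates an asparagine in the same subunits and thereby blocks the recruitment of coactivators. The hepatocyte is a known site of both HIF-1α and HIF-2α activity, and EGLN1 and EGLN3 are textbook targets of HIF, which closes a feedback loop. The counts measure mRNA, and the levels of the proteins were not analysed here.

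EGLN1 was the member that rose with Molidustat, and the HIF recognition core is shown first in the promoters of the 3 prolyl hydroxylases. Each window runs from 250 bases before to 50 bases after the RefSeq start on the gene's own strand, on build GRCh38.p14. Capitals mark the hypoxia response element cores ACGTG and GCGTG on either strand.

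EGLN1, chr1:231422238-231422537, minus strand: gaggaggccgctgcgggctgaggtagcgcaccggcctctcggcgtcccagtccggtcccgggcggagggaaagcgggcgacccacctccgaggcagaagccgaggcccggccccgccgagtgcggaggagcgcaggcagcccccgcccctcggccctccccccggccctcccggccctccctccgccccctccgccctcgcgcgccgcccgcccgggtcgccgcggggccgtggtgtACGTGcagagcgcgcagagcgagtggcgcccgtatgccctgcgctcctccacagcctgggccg

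EGLN2, chr19:40798941-40799240, plus strand: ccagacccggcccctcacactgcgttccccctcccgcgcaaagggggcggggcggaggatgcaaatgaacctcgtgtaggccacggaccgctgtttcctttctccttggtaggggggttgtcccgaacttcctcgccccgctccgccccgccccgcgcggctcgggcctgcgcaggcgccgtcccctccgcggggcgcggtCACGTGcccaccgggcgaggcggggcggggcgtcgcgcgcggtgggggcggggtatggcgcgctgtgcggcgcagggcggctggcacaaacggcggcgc

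EGLN3, chr14:33951025-33951324, minus strand: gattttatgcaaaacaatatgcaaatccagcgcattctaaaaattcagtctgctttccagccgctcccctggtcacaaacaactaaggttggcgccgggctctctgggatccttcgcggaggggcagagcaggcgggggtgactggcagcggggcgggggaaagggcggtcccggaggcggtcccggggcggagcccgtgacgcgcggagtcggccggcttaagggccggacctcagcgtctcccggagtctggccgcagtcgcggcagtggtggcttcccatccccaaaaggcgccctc

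The EGLN1 window held 1 ACGTG, whose first base lay 13 bases before the start (chr1:231422296-231422300). In the EGLN2 window the 2 matches overlapped, because they were the strands of 1 palindromic CACGTG 49 bases before the start. CACGTG is also the E-box that other basic helix-loop-helix factors bind. No match to these letters was found in the EGLN3 window. Of the 10 genes, 8 had a window in the table. HIF1A and EGLN2 had 2 windows each and HIF3A had 3, and 1 window per gene is described here. A further 3 windows (HIF1A, EPAS1 and HIF3A) held GCGTG. These short words are frequent. ACGTG occurred in 21.4% of the 35116 windows of the table, GCGTG in 36.5%, either core in 48.4% and CACGTG in 7.26%. A match describes the letters and is neither a binding site nor a cause of a change.

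Between 1499273 and 9179389 reads per library fell on genes, and levels are given as TMM-scaled CPM (the counts a gene has in each 1000000 of its library). Because the kit reads the 3′ end of each transcript, CPM is not a level per length, and it is used here to compare 1 gene between libraries. One library stood apart. In DMSO 48 h replicate 2, the smallest, reads outside every annotated feature made up 50.4% of those listed (17.1 to 25.6% elsewhere). Its TMM factor was 0.629, whereas the next lowest was 1.01, and its correlations with the other libraries (log2 CPM, 0.71 to 0.78) were below all correlations among those (0.86 to 0.96). It was higher than the 11 others in 24.5% of the 14274 genes tested and lower in 29.1%. Of the 8 members that could be tested, 4 were highest in this library, and EGLN2 was lowest there, so the 48 h results of the members are given with and without it. By limma's sample quality weights it had the lowest weight (0.298), followed by Molidustat 24 h replicate 2 (0.418), while the others had 0.804 to 2.05.

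Libraries were also compared with the label. All 10 hepatocyte markers passed the filter on low counts, with a summed level of 8864 to 28005 CPM and AFP as the most abundant. Fibroblast or stellate markers summed to at most 12.6 CPM, and endothelial markers to at most 6.45 CPM with VWF at 0 in all libraries. Leukocyte markers summed to 44.2 to 233 CPM. CD3E was at 0 in all libraries and LYZ, a lysozyme, made up most of that sum.

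Of the alpha subunits, HIF1A and EPAS1 were well detected, and neither passed the thresholds in any comparison of the edgeR fit to the 12 libraries. A gene passed where its log2 fold change was beyond 1 in either direction and its adjusted p was under 0.05. HIF1A (chr14:61695513-61748259, plus strand), which encodes HIF-1α, had 133, 82.4 and 109 CPM with DMSO and 145, 230.4 and 118 CPM with Molidustat at 24 h. At 48 h its level was 121, 359 and 129 CPM with DMSO and 122, 77.6 and 116 CPM with Molidustat. The groups overlapped at both times, and the 2 highest libraries were DMSO 48 h replicate 2 and Molidustat 24 h replicate 2. The log2 fold change was 0.61 (SE 0.421) at 24 h and -0.93 (SE 0.425) at 48 h, and edgeR's quasi-likelihood test gave an adjusted p of 0.999 and 0.356. Without DMSO 48 h replicate 2, the 48 h value was -0.26 (SE 0.314), and without Molidustat 24 h replicate 2, the 24 h value was 0.28 (SE 0.450). The overlapping genes HIF1A-AS1, HIF1A-AS3 and ENSG00000258964 share 2.58, 5.805 and 2.87% of the exonic bases of HIF1A, and the last of these held 0.593 to 13.97% as many counts. The 0.593% was in DMSO 48 h replicate 2, with 2 counts against 337.

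EPAS1 (chr2:46293667-46386697, plus strand) encodes HIF-2α. With DMSO its level was 184, 188 and 168 CPM at 24 h and 186, 919 and 140.1 CPM at 48 h. With Molidustat it was 178, 452 and 214 CPM at 24 h and 175, 137 and 129 CPM at 48 h. The same 2 libraries as for HIF1A were the highest, and the other 10 lay between 129 and 214 CPM. The log2 fold change was 0.65 (SE 0.561, adjusted p = 0.999) at 24 h and -1.49 (SE 0.572, adjusted p = 0.267) at 48 h. These became 0.12 (SE 0.596) at 24 h without Molidustat 24 h replicate 2 and -0.17 (SE 0.333) at 48 h without DMSO 48 h replicate 2. With no filter on low counts, EPAS1 passed as lower at 48 h (-1.42, adjusted p = 0.0225), where 764 genes passed (2.69%). HIF3A (chr19:46297042-46343433, plus strand), the third alpha subunit, had no count in 10 libraries, 1 count in Molidustat 24 h replicate 2 and 5 counts in Molidustat 48 h replicate 3. It did not pass the filter on low counts and was not tested in the edgeR fit to the 12 libraries. A count of 0 allows a level of up to 0.309 to 3.18 CPM depending on the library's depth (3 counts, counting error only).

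**Figure D1:**
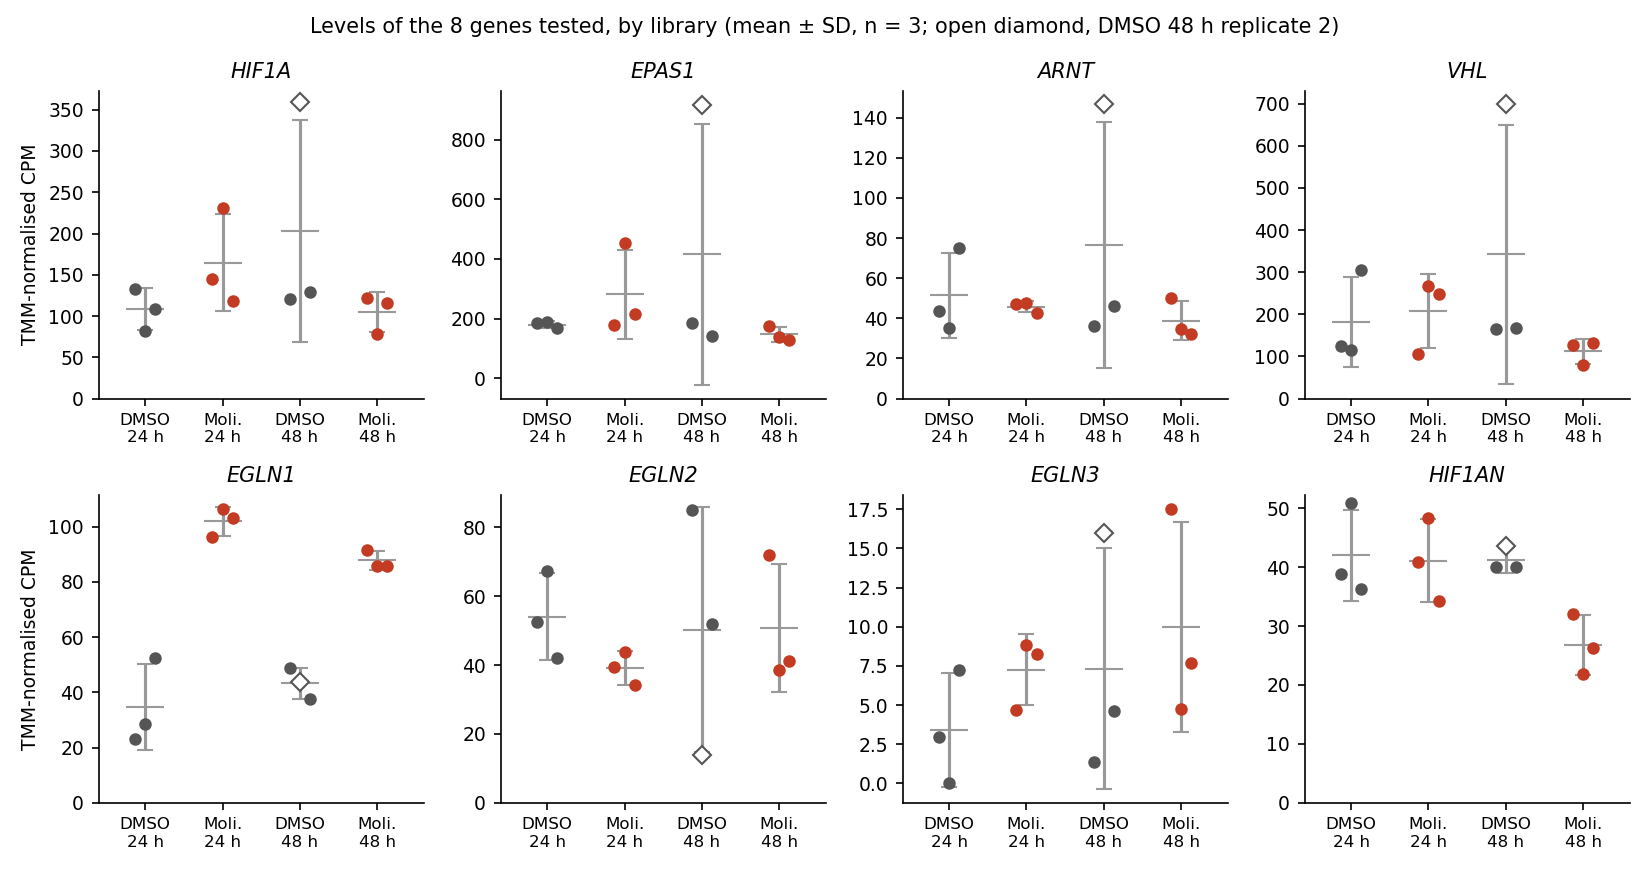
Level of the 8 tested genes (vertical axes, TMM-normalised CPM, each with its own scale) in the 12 libraries, by treatment and time. Each point is 1 library, the horizontal mark and bar are the mean ± SD of 3, and the open diamond is DMSO 48 h replicate 2, which lies above all other libraries for HIF1A, EPAS1, ARNT and VHL and at 13.8 CPM below all others for EGLN2.

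The beta subunits were represented by ARNT. ARNT (chr1:150809713-150876708, minus strand), the partner of all alpha subunits, had 43.9, 35.1 and 75.2 CPM with DMSO and 47.0, 47.8 and 42.5 CPM with Molidustat at 24 h. At 48 h it had 36.1, 147 and 46.0 CPM with DMSO and 49.9, 34.7 and 31.9 CPM with Molidustat. The groups overlapped at both times. Its log2 fold change was -0.17 (SE 0.461, adjusted p = 0.999) at 24 h and -0.93 (SE 0.470, adjusted p = 0.417) at 48 h, and the 48 h value was -0.09 (SE 0.348) without DMSO 48 h replicate 2. ARNT2 (chr15:80404350-80597933, plus strand), which is mainly neuronal, had no count in 11 libraries and 7 counts in Molidustat 24 h replicate 1. It did not pass the filter on low counts either.

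VHL (chr3:10141778-10153667, plus strand), the substrate receptor of the ligase, varied widely between libraries of 1 group. At 24 h it had 126, 114 and 306 CPM with DMSO and 107, 267 and 249 CPM with Molidustat, and the groups overlapped. At 48 h it had 164, 698 and 167 CPM with DMSO and 126, 78.5 and 132 CPM with Molidustat. All Molidustat libraries were then below all DMSO libraries, as was the case for 8.02% of the genes tested. The log2 fold change was 0.19 (SE 0.556, adjusted p = 0.999) at 24 h and -1.60 (SE 0.572, adjusted p = 0.241) at 48 h, and the latter was -0.57 (SE 0.414) without DMSO 48 h replicate 2. Leaving out each library in turn gave -0.055 to 0.77 at 24 h. With no filter on low counts, VHL passed as lower at 48 h, where 764 genes passed (2.69%). An antisense gene, ENSG00000287086, overlaps 23.5% of the exonic bases of VHL and held 1.78 to 5.70% as many counts. Since the strand setting of the counting is not stated, reads of the pair may be mixed.

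EGLN1 (chr1:231363751-231422287, minus strand) encodes PHD2, the prolyl hydroxylase known as the main sensor of oxygen in most cells. With DMSO its level was 23.2, 28.5 and 52.5 CPM at 24 h and 48.7, 43.6 and 37.4 CPM at 48 h. With Molidustat it was 96.1, 106 and 103 CPM at 24 h and 91.7, 85.8 and 85.9 CPM at 48 h. At each time, the levels with Molidustat were all above those with DMSO. All Molidustat libraries were above all DMSO libraries in 7.26% of the genes tested at 24 h, in 9.96% at 48 h and in 2.20% at both times. DMSO 48 h replicate 2, at 43.6 CPM, lay between the other DMSO 48 h libraries.

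Averaged over both times, EGLN1 rose with a log2 fold change of 1.29 (SE 0.229, 95% interval 0.80 to 1.77, adjusted p = 0.00865). It was the 1 member of the 8 tested to pass both thresholds, which 147 of the 14274 genes did (1.03%). The log2 fold change was 1.55 (SE 0.325) at 24 h and 1.02 (SE 0.323) at 48 h. Neither passed at its own time with edgeR (adjusted p = 0.0789 and 0.208), where 33 genes passed at 24 h and 33 at 48 h (0.231% at each). At an unadjusted p under 0.05, EGLN1 was the 1 member at 24 h (5.25% of the genes tested), and at 48 h EGLN1 was higher and HIF1A, EPAS1 and VHL lower (13.3%). When DMSO 48 h replicate 2 was left out, these were EGLN1, HIF1A and EPAS1, all higher, at 24 h (9.03%) and EGLN1 alone at 48 h (6.60%). By limma-voom at 48 h they were EGLN1 and EGLN3, higher, and HIF1AN, lower (14.7%), and in the average EGLN1 and EGLN3, higher (15.2%). In the average EGLN1 was the 1 member with edgeR (1574 of the 14274 genes, that is 11%), also when that library was left out (11.9%). DESeq2 called EGLN1 at 24 h (0.5% of genes called, 141 of 28215) and no member at 48 h (1.24%), and limma-voom with sample quality weights called EGLN1 at both times (0.448% and 1.95%). Here and below, DESeq2 was run without the filter on low counts. Its shares are over more genes and are not on the same base as those of edgeR and limma-voom. Without DMSO 48 h replicate 2, EGLN1 passed at 24 h (adjusted p = 0.0130, 0.761% of genes passing) and in the average (log2 fold change 1.29, adjusted p = 0.00326, 1.37%), but not at 48 h (1.02, adjusted p = 0.386, 0.347%). Without DMSO 24 h replicate 3 it also passed at 24 h (1.96, adjusted p = 0.0305, 0.188%). The averaged call was made in all 12 fits that left out 1 library, with log2 fold changes of 1.17 to 1.48.

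The order of the EGLN1 group means was Molidustat 24 h (102 ± 5.26 CPM, SD, n = 3), Molidustat 48 h (87.8 ± 3.37), DMSO 48 h (43.2 ± 5.64) and DMSO 24 h (34.7 ± 15.6). The neighbours within a treatment were not separated by the test. From 24 h to 48 h, the log2 fold change was 0.31 (SE 0.323) in DMSO and -0.22 (SE 0.316) in Molidustat. The difference between the 48 h and 24 h effects was -0.53 (95% interval -1.49 to 0.43, adjusted p = 0.870). The fit without DMSO 48 h replicate 2 gave a change in DMSO of 0.32 (SE 0.322) and a difference of -0.54 (SE 0.431). Leaving out each library in turn gave a change in DMSO of 0.07 (without DMSO 24 h replicate 1) to 0.73 (without DMSO 24 h replicate 3) and a difference of -0.30 to -0.96 without the same 2 libraries. Without DMSO 24 h replicate 3 both had an unadjusted p under 0.05, but neither passed (adjusted p = 0.692 and 0.723).

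These counts cannot be assigned to EGLN1 alone. In GENCODE, the protein-coding gene ENSG00000287856 covers 55.8% of the exonic bases of EGLN1 on the same strand, and 91.8% of the last 500 bases of its canonical transcript, the end that the kit reads. Its counts were 78.5 to 89.5% of those of EGLN1 in every library, and it rose alike, with an averaged log2 fold change of 1.23 (SE 0.233, adjusted p = 0.0141). The log2 CPM of ENSG00000287856 followed EGLN1 most closely over the 12 libraries (r = 0.997). Because reads on overlapping genes seemed to be counted in each of them, its rise and its r may largely restate the same reads. They are not a second observation beside EGLN1. The next gene was PGM1, a phosphoglucomutase of glycogen metabolism (r = 0.950). These correlations describe 12 libraries that share the treatment, and they come with no test.

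EGLN2 (chr19:40798996-40808434, plus strand) encodes PHD1. At 24 h it had 52.6, 67.4 and 42.1 CPM with DMSO and 39.4, 43.9 and 34.2 CPM with Molidustat, and at 48 h 85.0, 13.8 and 52.1 CPM with DMSO and 72.1, 38.6 and 41.3 CPM with Molidustat. The groups overlapped at both times, and DMSO 48 h replicate 2 was the lowest of all libraries. The log2 fold change was -0.46 (SE 0.466, adjusted p = 0.999) at 24 h and -0.03 (SE 0.464, adjusted p = 0.991) at 48 h, and the latter was -0.44 (SE 0.338) without that library. Without DMSO 48 h replicate 1 the 48 h value was 0.53 (SE 0.489). The readthrough gene RAB4B-EGLN2 covers 96.8% of the last 500 bases of EGLN2, and its counts were 91.4 to 131% of those of EGLN2, so the pair cannot be told apart. Its averaged log2 fold change was -0.24 (SE 0.294, adjusted p = 0.817), and -0.42 (SE 0.218, adjusted p = 0.483) without DMSO 48 h replicate 2.

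EGLN3 (chr14:33924227-34462774, minus strand), encoding PHD3, rested on the fewest counts of the members tested. At 24 h it had 2.99, 0 and 7.23 CPM with DMSO and 4.66, 8.86 and 8.27 CPM with Molidustat. At 48 h it had 1.36, 16.0 and 4.65 CPM with DMSO and 17.5, 4.72 and 7.70 CPM with Molidustat. These levels rest on 0 to 78 counts per library, and the groups overlapped at both times. The log2 fold change was 1.05 (95% interval -1.05 to 3.14) at 24 h and 0.63 (SE 1.004) at 48 h, so that neither a rise as large as that of EGLN1 nor a fall could be shown or set aside at this depth. Without DMSO 48 h replicate 2 the 48 h value was 1.71 (SE 0.996, adjusted p = 0.845), and without Molidustat 48 h replicate 1 it was -0.039 (SE 1.15). The 24 h value was 0.51 (SE 0.890) without DMSO 24 h replicate 2 and 2.14 (SE 1.17, adjusted p = 0.945) without DMSO 24 h replicate 3.

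**Figure D2:**
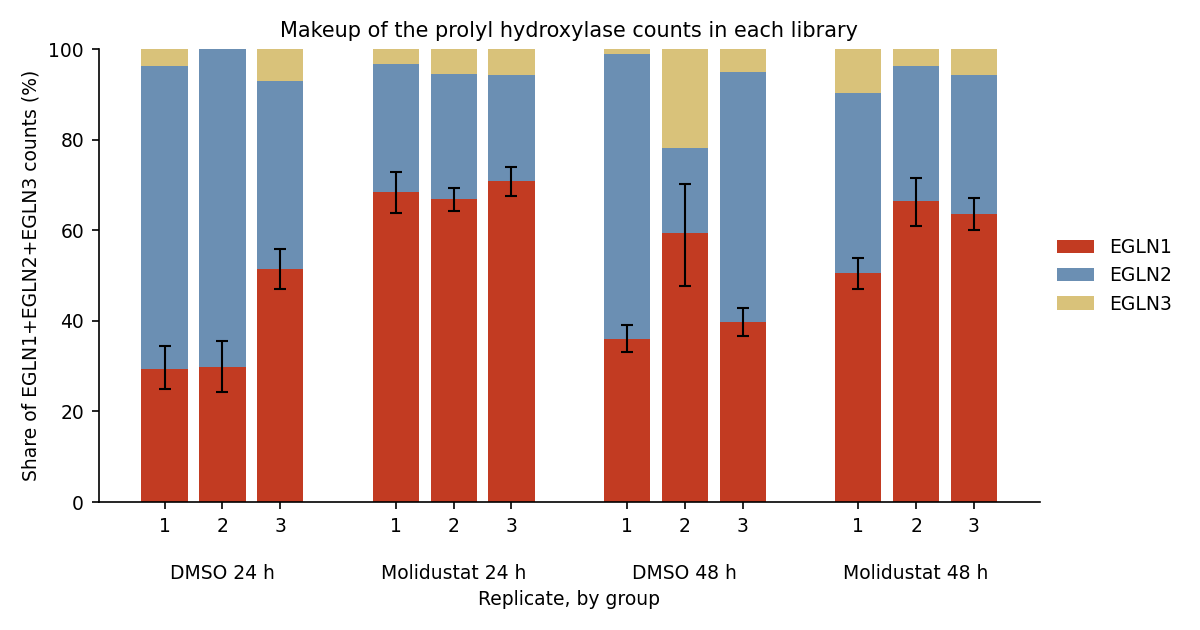
Share of the summed EGLN1, EGLN2 and EGLN3 counts (vertical axis, %) held by each gene in the 12 libraries (bars, by replicate and group). Error bars are the 95% Wilson interval of the EGLN1 share (counting error only), which was 66.8 to 70.8% in the Molidustat 24 h libraries and 29.4 to 51.5% in the DMSO 24 h libraries, while DMSO 48 h replicate 2 rests on 69 counts.

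The levels of the 3 prolyl hydroxylases can also be set against each other within a library, as shares of their summed counts, which restate the EGLN1 counts beside the others. At 24 h, EGLN1 held 68.7 ± 2.02% of the counts of the 3 genes with Molidustat and 36.9 ± 12.7% with DMSO (SD, n = 3), and the groups did not overlap. A two-sided exact permutation test gave p = 0.1, the smallest that 3 against 3 allows. At 48 h the shares were 60.2 ± 8.48% and 45.1 ± 12.6% (exact permutation p = 0.2), and the groups overlapped because of DMSO 48 h replicate 2. In that library EGLN1 held 59.4% of 69 counts (95% Wilson interval 47.6 to 70.2%), against 36.0% and 39.7% in the other DMSO 48 h libraries. Without it the groups did not overlap (50.6, 66.4 and 63.6% with Molidustat), and the DMSO share was 37.9 ± 2.61% (SD, n = 2; exact permutation p = 0.2, where 3 against 2 can reach 0.1). These are shares of counts and not of molecules per length, and they include the reads shared with the overlapping genes.

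HIF1AN (chr10:100529072-100559998, plus strand) had close levels in 3 of the 4 groups. At 24 h it had 38.8, 50.8 and 36.4 CPM with DMSO and 40.9, 48.3 and 34.2 CPM with Molidustat, and the groups overlapped. At 48 h it had 40.0, 43.6 and 40.0 CPM with DMSO and 32.1, 21.9 and 26.3 CPM with Molidustat. All Molidustat libraries were then below all DMSO libraries, as in 8.02% of the genes tested. The 48 h difference did not pass the test (log2 fold change -0.61, SE 0.310, adjusted p = 0.418) and was much the same without DMSO 48 h replicate 2 (-0.59, SE 0.315). At 24 h the log2 fold change was -0.03 (SE 0.305, adjusted p = 0.999). NDUFB8, a subunit of Complex I encoded on the opposite strand, shares 2.34% of the exonic bases of HIF1AN. ENSG00000255339, also on the opposite strand, shares 0.223%. Over the 12 libraries they held 20959 and 8095 counts, against 2224 for HIF1AN. The strand setting of the counting is not stated, so reads of these genes may be mixed with those of HIF1AN.

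**Figure D3:**
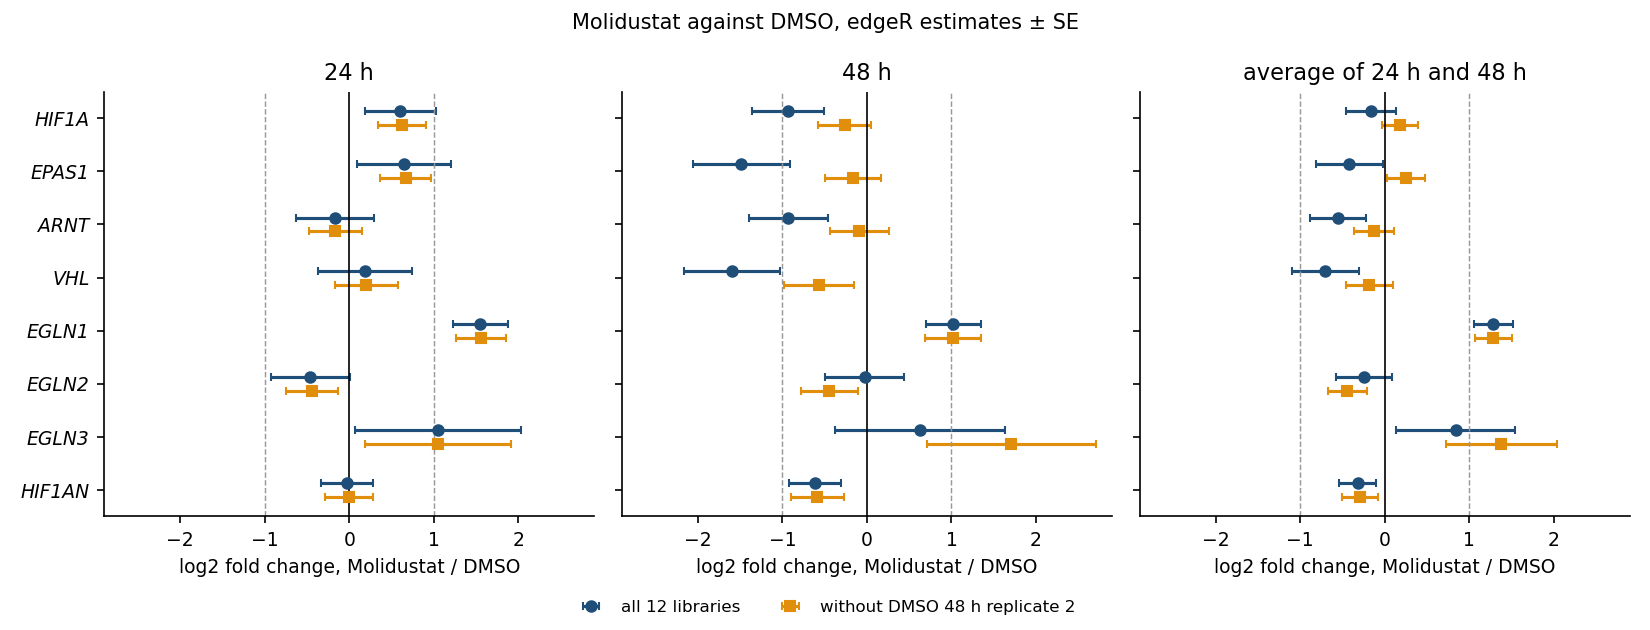
Log2 fold change of Molidustat against DMSO (horizontal axes; error bars, ± SE from edgeR) for the 8 tested genes at 24 h, at 48 h and averaged. Blue circles are the fit of all 12 libraries and orange squares the fit without DMSO 48 h replicate 2; dashed lines mark log2 fold changes of -1 and 1. EGLN1 stays near 1.02 at 48 h in both fits, while EPAS1 moves from -1.49 to -0.17.

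No member passed in the test of the difference between the 48 h and 24 h effects, nor did any gene of the 14274 (0%), of which 168 were higher and 800 lower at an unadjusted p under 0.05 (6.78%). By DESeq2 and limma-voom no member passed either, and these called 4 and 0 genes in all. At an unadjusted p under 0.05, edgeR had HIF1A, EPAS1 and VHL, with differences of -1.54, -2.14 and -1.79 on the log2 scale (adjusted p = 0.728 for each). Without DMSO 48 h replicate 2 these were -0.88, -0.83 and -0.77, and no member had an unadjusted p under 0.05 (3.19% of genes did). From 24 h to 48 h no member passed in DMSO, where 1 gene did (0.00701%; 43 by DESeq2, 2 by limma-voom and 400 with no filter), or in Molidustat, where no gene did (0%, with 341 higher and 313 lower at an unadjusted p under 0.05, and 12 genes called by DESeq2 and 1 by limma-voom). With the 12 libraries, neither edgeR contrast over time had a member at an unadjusted p under 0.05, which 8.14% of genes had in DMSO and 4.58% in Molidustat. Leaving out DMSO 48 h replicate 2, 4 members were lower at 48 h in Molidustat at that level, as were 741 genes, with 668 higher (9.24% in all). Their log2 fold changes were -0.65 for HIF1A, -0.94 for EPAS1, -0.89 for VHL and -0.62 for HIF1AN, and none passed (adjusted p = 0.487, 0.322, 0.481 and 0.524). The library left out belongs to neither group of that contrast and enters its fit only through the filter, the scaling and the shared estimate of the spread. With Molidustat 24 h replicate 2 left out instead, the 4 values were -0.34, -0.44, -0.69 and -0.50, and none had an unadjusted p under 0.05. In DMSO, the fit without DMSO 48 h replicate 2 had no member at that level (4.03% of genes). With all libraries, DESeq2 had HIF1A and EPAS1, both higher at 48 h, in DMSO (5.40% of genes) and HIF1AN, lower, in Molidustat (3.34%), and limma-voom had none. The DESeq2 values in DMSO were 0.97 for HIF1A and 1.29 for EPAS1, and 0.19 and -0.16 without DMSO 48 h replicate 2.

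The partners of VHL did not pass the test either. They are the adaptors ELOB and ELOC, the scaffold CUL2, the RING subunit RBX1, the ubiquitin-conjugating enzymes UBE2D1, UBE2D2 and UBE2D3, and UBE2M and NEDD8, which activate the cullin. All 9 were tested, and none passed at 24 h, at 48 h or in the average by edgeR, DESeq2 or limma-voom, or without DMSO 48 h replicate 2. At an unadjusted p under 0.05 edgeR had 1, RBX1, higher at 48 h (log2 fold change 0.93), a level that 13.3% of the genes tested reached. Without DMSO 48 h replicate 2 it had none (RBX1, 0.80), against 6.60% of genes. The median averaged log2 fold change was 0.01, beside -0.01 over all genes tested. RBX1, the member of this list with the smallest averaged p, had a log2 fold change of 0.52 (SE 0.301, adjusted p = 0.549).

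Among 14 other regulators of the HIF-α protein, all tested and with a median averaged log2 fold change of 0.08 (-0.01 without DMSO 48 h replicate 2), none passed in any of the 3 comparisons with these tools or without DMSO 48 h replicate 2. At an unadjusted p under 0.05 edgeR had WSB1 higher and HSP90AA1 lower in the average (1574 of the 14274 genes, that is 11%). At that level it had WSB1 higher at 24 h (5.25%), and FKBP8 and P4HTM higher and HSP90AA1 lower at 48 h (13.3%). In the fit without DMSO 48 h replicate 2 it had WSB1 higher and HSP90AA1 lower at 48 h (6.60%) but neither FKBP8 nor P4HTM. At 24 h that fit had WSB1 higher and HSP90AB1 and P4HTM lower (9.03%). P4HTM rested on only 183 counts over the 12 libraries, with group means of 1.05 to 8.28 CPM. The list holds the chaperones HSP90AA1 and HSP90AB1, the ubiquitin ligases SIAH1, SIAH2 and STUB1, and the transmembrane hydroxylase P4HTM. WSB1, a SOCS-box protein linked to the turnover of VHL, had the smallest averaged p, with a log2 fold change of 1.03 (SE 0.351, adjusted p = 0.585) at 24 h and 0.66 (SE 0.247, adjusted p = 0.324) in the average. The average was 0.90 without DMSO 48 h replicate 2 (SE 0.186, adjusted p = 0.0145), past the threshold on p but not on the fold change.

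CITED2 was the 1 gene of 6 coactivators and competitors to pass, in the average, where 1.03% of the genes tested passed. It encodes a protein that binds the same domain of EP300 and CREBBP as HIF-α and competes with it. With DMSO it had 92.3, 128 and 87.4 CPM at 24 h and 160.5, 49.0 and 138 CPM at 48 h. With Molidustat it had 205, 423 and 219 CPM at 24 h and 329, 238 and 506 CPM at 48 h. It was above DMSO in all libraries of each time, as were 2.20% of the genes tested at both times. The averaged log2 fold change was 1.54 (SE 0.315, adjusted p = 0.0241), while the list had a median of -0.03. Without DMSO 48 h replicate 2 CITED2 passed at 24 h and in the average, and DESeq2 and limma-voom called it at 48 h and in the average. EP300 and CREBBP had averaged log2 fold changes of -0.29 and -0.35 (adjusted p = 0.689 and 0.712), and of -0.31 and -0.17 without DMSO 48 h replicate 2.

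Of 11 other bHLH-PAS factors, the family of HIF-α and ARNT, 6 were tested and none passed in the 3 comparisons with these tools or without DMSO 48 h replicate 2 (median averaged log2 fold change -0.20). CLOCK, the circadian partner of BMAL1, had the smallest averaged p, with a log2 fold change of -0.71 (SE 0.314, adjusted p = 0.418). It was the 1 gene of this list at an unadjusted p under 0.05 in the 3 edgeR comparisons. This was in the average, where 1574 of the 14274 genes reached that level. AHR, the xenobiotic receptor that shares ARNT as its partner, had -0.09 (adjusted p = 0.925). AHRR, SIM1, SIM2, NPAS3 and NPAS4 did not pass the filter, and NPAS4 was at 0 in all libraries.

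The HIF target panel gives the scale of the response in the same libraries. Of its 11 genes 10 were tested, and 6 rose at 24 h, 3 at 48 h and 7 in the average, with none lower. Of all genes tested, 0.231, 0.231 and 1.03% passed in these comparisons. At 48 h the panel count was 6 with DESeq2 and 8 with limma-voom (1.24 and 1.95% of genes called). Without DMSO 48 h replicate 2 the counts were 7, 4 and 7 of 11 tested (0.761, 0.347 and 1.37% of genes). The median averaged log2 fold change was 2.27. BNIP3, a mitophagy receptor, had an averaged log2 fold change of 2.74 (SE 0.239) and PGK1, a glycolytic kinase, 2.39 (SE 0.250). On the same scale LDHA, PDK1, NDRG1 and SLC2A1 rose by 2.171, 2.62, 2.36 and 1.81. EPO, encoding erythropoietin, had no count in the DMSO 24 h libraries and 13.6, 41.4 and 16.3 CPM with Molidustat, at least 93.8-fold higher (floor of 3 counts over the group). This bound pools the libraries of the group. On the floor of 3 counts in each library, 0.617 to 1.15 CPM there, it would be lower. The 48 h level of EPO was 2.58, 8.52 and 5.79 CPM with DMSO and 52.8, 69.9 and 91.9 CPM with Molidustat. The median of the panel was the same with EPO set at its bound. This panel was drawn up with these results known, so its counts are not independent evidence. The 1.29 of EGLN1 was below the values of the 7 panel genes that passed; the differences between genes were not tested.

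**Figure D4:**
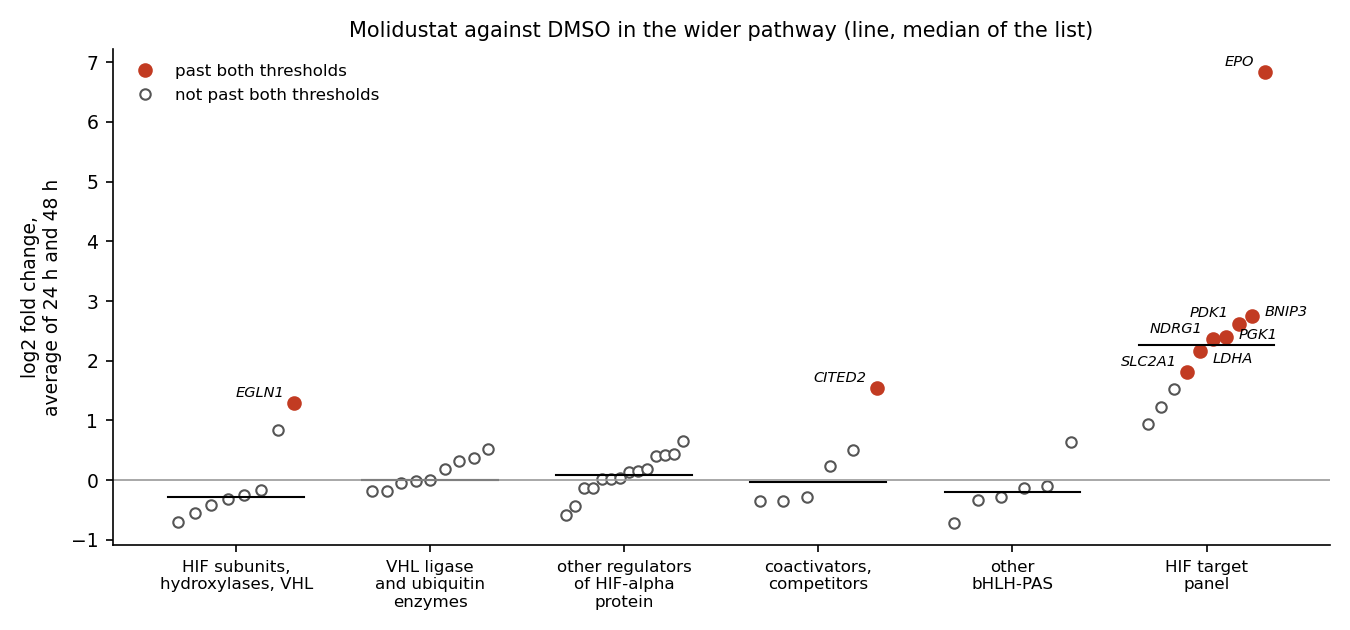
Averaged log2 fold change of Molidustat against DMSO (vertical axis) for the tested genes of 6 lists, with filled points for genes past both thresholds and a line at each list's median. EGLN1 and CITED2 are the filled points outside the target panel, and the value of EPO depends on the prior count since its DMSO 24 h libraries have no count.

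Markers moved beside these genes. Of the hepatocyte markers, TF (transferrin) and SERPINA1 (alpha-1-antitrypsin) rose in the average, with log2 fold changes of 1.39 (SE 0.299, adjusted p = 0.0337) and 1.34 (SE 0.260, adjusted p = 0.0174). The other 8 did not pass with edgeR, and ALB had 0.88 (adjusted p = 0.236). APOA1, an apolipoprotein, had 1.21 (SE 0.377, adjusted p = 0.209), and DESeq2 and limma-voom called it at 48 h and in the average. In the average 7 of the 10 had a positive log2 fold change and 3 a negative one. HNF4A, a hepatocyte transcription factor, was at 70.5, 1237 and 209 CPM with DMSO and 156, 145 and 108 CPM with Molidustat at 48 h, a log2 fold change of -1.88 (SE 0.823, adjusted p = 0.337) that was -0.05 without DMSO 48 h replicate 2. APOB, another apolipoprotein, had -0.46 (SE 0.329, adjusted p = 0.609) at 48 h and -0.67 (SE 0.246, adjusted p = 0.529) without that library. LYZ had -0.74 (SE 0.212, adjusted p = 0.156) in the average and -1.17 (SE 0.304, adjusted p = 0.175) at 48 h, where DESeq2 and limma-voom called it lower. Its 48 h level was 101, 131 and 137 CPM with DMSO and 47.9, 42.9 and 72.2 CPM with Molidustat. In the average COL1A2 had 1.68 (SE 0.654, adjusted p = 0.349) and PECAM1 -0.35 (SE 1.19, adjusted p = 0.947). The summed hepatocyte markers were 11785 to 14642 CPM with DMSO and 17298 to 21584 CPM with Molidustat at 24 h, and at 48 h 8864 to 16324 CPM and 23165 to 28005 CPM, the 8864 being DMSO 48 h replicate 2. Their part in the results was not tested, and in bulk samples a change in every cell and a change in some of the cells cannot be told apart.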

How the data were processed

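RNA of 12 Huh7 libraries (25 µM Molidustat or DMSO, 24 h or 48 h, 3 replicates each) was read from the 3′ end. The authors deposited raw counts for each gene, made by trimming with cutadapt 1.9.1, aligning with STAR 2.7.9a to GRCh38 and counting with HTSeq 0.11.2 (versions per the methods and the submitters' processing notes). The annotation release, the strand setting and the use of molecular identifiers are not given in the sources used here, so intervals of shares and limits from a count of 0 cover counting error only, while those of fold changes come from the spread between libraries. Reads on overlapping genes seemed to be counted in each of them. The 5 summary lines that name no gene stayed out of library sizes.

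Groups came from the labels. GENCODE release 44 named 60437 of 60666 genes. In R 4.3.3, edgeR 4.0.16 filtered genes (filterByExpr, minimum count 10, minimum total 15, 14274 of 28430 kept), scaled by TMM and fitted 1 quasi-likelihood model to the 12 libraries with 6 contrasts. P-values were adjusted by Benjamini-Hochberg over all genes tested. Genes passed with a log2 fold change beyond 1 and an adjusted p under 0.05. Standard errors come from the fold change and the F statistic. The test was also run on simulated data, and the outcome is not reported here.

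The genes and lists were chosen with earlier results of these data known. Genes named are the 10 members, the 3 genes correlated best with a member that passed (log2 CPM, prior count 2), each list's genes that passed at either time or in the average or else the one with the smallest averaged p, and genes overlapping a member. The result of 1 gene so named is not reported here. Others named for context (EP300, CREBBP, AHR, ALB, APOA1, APOB, HNF4A, HSP90AA1, HSP90AB1, FKBP8, P4HTM and the untested or list-defining genes) were added after their values were seen. The wider lists were the VHL ligase, other regulators, coactivators, bHLH-PAS factors, a target panel and markers of 4 cell types. Alternatives were DESeq2 1.42.0, limma-voom with sample quality weights, RLE factors, total counts, other filters, each time alone, a replicate block, no fold threshold and each library left out. After the data were seen, DESeq2 without DMSO 48 h replicate 2 and edgeR without that library and Molidustat 24 h replicate 2 were added. Figures used Python 3.11.15 and matplotlib 3.10.9. Promoter sequences are RefSeq's.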

Additional observations from a re-analysis of the deposited data

How the results depend on the processing

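The averaged count of 1 member (EGLN1) held under every alternative run, as did the counts of 0 for both contrasts over time. At 24 h the count of members past the thresholds went from 0 to 1, EGLN1 each time, with DESeq2, with limma-voom, with no filter on low counts, with DESeq2 without DMSO 48 h replicate 2 and with that library and Molidustat 24 h replicate 2, the 2 of lowest sample quality weight, both left out. These fits called 141, 64, 106, 239 and 90 genes in all, against 33. At 48 h it went to 1 (EGLN1) with limma-voom and to 2 (EPAS1 and VHL, lower) with no filter, and for the difference between the times to 1 (EPAS1) with no filter. The unfiltered fit called 764 genes at 48 h and 321 for the difference, against 33 and 0; the cause was not tested. Leaving out each library in turn gave counts of 0 to 1 at 24 h (EGLN1 without DMSO 24 h replicate 3 and without DMSO 48 h replicate 2), 0 at 48 h, 1 in the average and 0 for the others.

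Log2 fold changes that changed sign all belonged to members that did not pass in the edgeR fit to the 12 libraries. At 24 h these were VHL at -0.040 without both of these libraries and HIF1AN at 0.014 with at least 10 counts in every library. At 48 h it was EGLN2 at 0.021 with that filter and 0.019 with the replicate block. In the average, HIF1A was at 0.075 with limma-voom, 0.19 with DESeq2 without DMSO 48 h replicate 2 and 0.012 without both libraries, and EPAS1 at 0.030 and 0.26 in the first 2 of these. Leaving out each library in turn gave ranges that crossed 0 for ARNT (-0.38 to 0.19), VHL (-0.055 to 0.77) and HIF1AN (-0.16 to 0.13) at 24 h, for EGLN2 (-0.44 to 0.53) and EGLN3 (-0.039 to 1.71) at 48 h, and for HIF1A (-0.33 to 0.18), EPAS1 (-0.69 to 0.25) and EGLN2 (-0.44 to 0.035) in the average. For HIF1A and EPAS1 the upper end was the fit without DMSO 48 h replicate 2 and the lower end the fit without Molidustat 24 h replicate 2.

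Replicate numbers are shared by the groups, but samples of the same number did not deviate together (18 pairs, correlations of -0.09 to 0.14, of which 3 above 0.1), so they were not treated as pairs. The fit with the replicate number as a block called 0 members at 24 h, 0 at 48 h, 1 in the average (EGLN1, 1.30, adjusted p = 0.0212) and 0 elsewhere, and 30, 22 and 119 genes in all, against 33, 33 and 147. Over all genes, 141, 350 and 291 genes passed at 24 h, at 48 h and in the average with DESeq2, 64, 278 and 314 with limma-voom, 106, 764 and 442 with no filter, 15, 15 and 90 with at least 10 counts in every library, and 57 and 7 at 24 h and 48 h with each time fitted alone. Leaving out each library gave 20 to 116, 13 to 327 and 78 to 209. The count of 327 at 48 h was without DMSO 48 h replicate 1 and 198 without replicate 3, both mostly lower (272 and 152 genes), against 53 without replicate 2. The target panel had 6 genes past the thresholds at 48 h with DESeq2 and 8 with limma-voom, against 3. Total counts in place of TMM moved the median log2 fold change of all genes at 48 h to 0.13 from 0.01. HIF3A and ARNT2 had too few counts to pass the filter used with edgeR and limma-voom. DESeq2 and the edgeR fit with no filter included them, and neither gene passed there. EGLN3 rested on 0 to 78 counts per library.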
